A study of Mus musculus with 12 samples.

Results

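Heparan sulfate is a sulfated sugar chain carried by a small set of core proteins, and 35 genes for the enzymes that build and edit it and for those core proteins were followed here, out of 43280 gene symbols in the count table. The members were taken by name: 6 3-O-sulfotransferases, 3 6-O-sulfotransferases, the 2-O-sulfotransferase Hs2st1, 4 N-deacetylase/N-sulfotransferases, 5 genes of chain initiation and polymerisation, the epimerase Glce, 2 extracellular sulfatases, heparanase, 4 syndecans, 6 glypicans and the basement membrane proteoglycans Hspg2 (perlecan) and Agrn (agrin). RNA was sequenced from epithelial cells of the submandibular salivary gland of mouse embryos at day 15, of the strain Tg(KRT5-Venus)1Sgkd, in which the KRT5 promoter drives the fluorescent protein Venus. Flow sorting took cells with E-cadherin on their surface in every group and split them by surface Kit, a receptor tyrosine kinase, and by Venus, here called K5. The 4 groups of 3 libraries each are Kit+ K5+, then Kit+ K5-, then Kit- K5+ and last Kit- K5-, the order in which 4 group means are given below. All 4 groups carry the transgene, and none had a further treatment named in the labels. How many embryos were pooled for a library is not stated in the sources used here, and nothing says that libraries of a group came from separate animals, so p-values measure the spread between these libraries, which may be technical. Replicates 1, 2 and 3 of each group hold library numbers 1 to 4, 5 to 8 and 9 to 12, and such a set of 4 libraries is called a run.

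As background, heparan sulfate chains start on a short linker on a core protein and are extended by Ext1 and Ext2, after which N-deacetylase/N-sulfotransferases, Glce and the 2-O-, 6-O- and 3-O-sulfotransferases add sulfate in patches that bind growth factors. FGFs signal through a complex of ligand, receptor and heparan sulfate, and FGF7 and FGF10 from the mesenchyme drive growth and budding of this gland, where 3-O-sulfated heparan sulfate is known for its part in the Kit+ end buds. After secretion the sulfatases Sulf1 and Sulf2 remove 6-O-sulfate from the chains and heparanase cuts them.

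The promoters of 4 members are shown as examples, and other members were also called. Hs3st3a1 and Hs3st3b1 encode a pair of closely related 3-O-sulfotransferases that were both lowest in Kit- K5- cells. Sdc4 and Sdc3 are syndecans that differed in opposite directions. Each sequence holds the 250 bases before the RefSeq start site, 5′ to 3′ on the gene's strand, from RefSeq on GRCm38.p6, in which 26 of the 35 members had a promoter. Capitals mark matches, on either strand, to the GC box with the letters GGGCGG, the CCAAT box with the letters CCAAT, the E-box with the letters CACGTG, the TATA box with the letters TATAAA, the ETS motif with the letters CCGGAAG or the AP-1 motif with the letters TGANTCA. 
Hs3st3a1 (GRCm38.p6, chr11:64435082-64435331, plus strand): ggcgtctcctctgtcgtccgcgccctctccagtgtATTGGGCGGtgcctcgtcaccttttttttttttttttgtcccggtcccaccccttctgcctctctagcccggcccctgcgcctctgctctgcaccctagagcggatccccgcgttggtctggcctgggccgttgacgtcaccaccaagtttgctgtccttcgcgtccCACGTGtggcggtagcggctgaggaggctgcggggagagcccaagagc
Hs3st3b1 (GRCm38.p6, chr11:63922285-63922534, minus strand): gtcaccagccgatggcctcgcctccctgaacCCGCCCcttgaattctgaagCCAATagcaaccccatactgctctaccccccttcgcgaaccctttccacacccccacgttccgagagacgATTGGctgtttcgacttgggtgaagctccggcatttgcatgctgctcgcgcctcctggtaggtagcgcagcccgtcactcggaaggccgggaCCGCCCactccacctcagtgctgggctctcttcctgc
Sdc4 (GRCm38.p6, chr2:164443189-164443438, minus strand): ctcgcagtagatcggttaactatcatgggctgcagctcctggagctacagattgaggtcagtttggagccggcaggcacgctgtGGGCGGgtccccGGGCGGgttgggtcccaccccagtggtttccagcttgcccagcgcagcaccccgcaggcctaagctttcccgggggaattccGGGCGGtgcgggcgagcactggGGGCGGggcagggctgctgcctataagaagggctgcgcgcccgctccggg
Sdc3 (GRCm38.p6, chr4:130792287-130792536, plus strand): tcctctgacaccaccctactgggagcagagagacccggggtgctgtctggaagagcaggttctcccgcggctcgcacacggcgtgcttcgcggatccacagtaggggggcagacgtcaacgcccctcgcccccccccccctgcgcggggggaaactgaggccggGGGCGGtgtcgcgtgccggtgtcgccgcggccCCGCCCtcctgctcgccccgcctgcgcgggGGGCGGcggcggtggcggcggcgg

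The Sdc4 promoter held 4 matches to the GC box and the Sdc3 promoter 3, with no match to the other motifs. The Hs3st3b1 promoter held 2 GC boxes and 2 CCAAT boxes, and the Hs3st3a1 promoter 1 GC box, 1 CCAAT box that overlaps it, and 1 E-box. A GC box was in 32.7% of 32851 windows of this length, a CCAAT box in 33.8%, a TATA box in 12.4%, an ETS motif in 6.91%, an E-box in 6.02% and an AP-1 motif in 6.75%. Of the 31 windows of the 26 members, 21 held a GC box, 13 a CCAAT box, 3 a TATA box, 1 an ETS motif, 3 an E-box and 0 an AP-1 motif. These are letter matches and were not tested as sites. The Sdc4 window lies inside the GENCODE M21 span of its gene, 164424247 to 164443887, so RefSeq and GENCODE place its start site differently.

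The libraries held 5589037 to 13724364 counts. Kit was at a mean of 319 and 343 CPM (counts scaled to 1000000 per library, with TMM-scaled library sizes) in Kit+ K5+ and Kit+ K5- libraries and at 22.4 and 14.7 CPM in the Kit- groups, with and without K5. Krt5 averaged 5.25, 2.43, 18.9 and 4.2 CPM in the same order, and its K5 difference was log2 1.11 ± 0.85 in Kit+ cells (adjusted p = 0.829) and 2.18 ± 0.85 in Kit- cells (adjusted p = 0.0964), where it passed with the run as a block (2.77 ± 0.72, adjusted p = 0.0142). The Kit- K5- libraries stood apart from the label of epithelial cells: Cdh1, the E-cadherin gene of the gate, averaged 173 CPM there against 587 to 799.9 CPM in the other groups, the 21 epithelium markers summed to 515 to 647 CPM against 1727 to 3492 CPM, and the 16 mesenchyme markers to 12863 to 21288 CPM against 607 to 1186 CPM. No gene of either list was at 0 in every library of a group. The 8 mast cell markers summed to 4959, 224 and 128 CPM in the Kit+ K5- libraries and to 2.75 to 46.9 CPM elsewhere. Mitochondrial genes took 5.59% to 12.2% of counts in Kit- K5- libraries, a range that overlaps the others, which reached 30.9%. The part of these differences in the results on Kit- K5- cells was not tested, and in bulk libraries fewer cells of a type and less RNA per cell cannot be told apart.

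**Figure D1:**
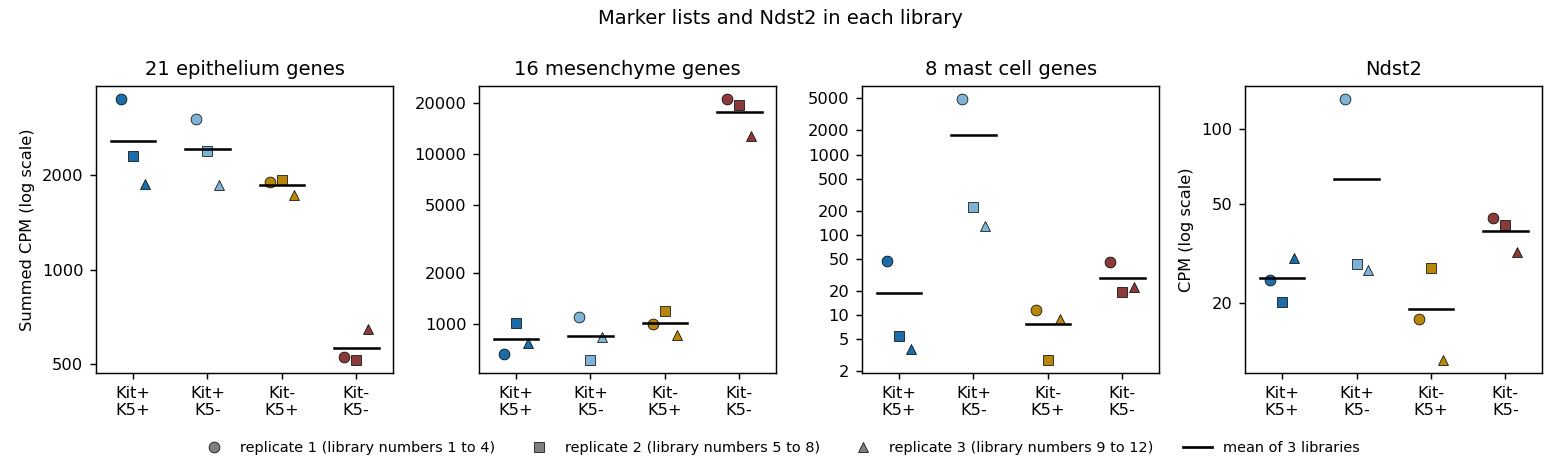
Summed CPM of the epithelium, mesenchyme and mast cell marker lists and CPM of the member Ndst2 in each library (log scales), with symbols for the 3 replicates and a bar for the mean of 3 libraries. The Kit- K5- libraries hold 12863 to 21288 CPM of mesenchyme markers, and Kit+ K5- replicate 1 holds 4959 CPM of mast cell markers together with 133 CPM of Ndst2.

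The 2 comparisons against Kit- K5- cells held nearly all the member calls. Of 35 members, 30 had enough counts to be tested among 17030 genes in edgeR's quasi-likelihood test with Benjamini-Hochberg adjustment at 0.05. Against Kit- K5- cells, Kit- K5+ cells had 9 members called, 6 higher and 3 lower, beside 16.5% of all genes called, 7.38% higher and 9.10% lower. Kit+ K5- cells had 11 members called, 3 higher and 8 lower, beside 21.3% of all genes called, 10.2% higher and 11.1% lower. With the run as a block these counts were 11 and 14 members, beside 23.8% and 29.2% of all genes. Within Kit+ cells 0 of 30 members differed by K5, beside 0% of all genes (3 members and 1161 genes had an unadjusted p under 0.05, and DESeq2 called 0 members and 0.658% of its genes), and within K5+ cells 0 of 30 differed by Kit, beside 0.658% of all genes (5 members at an unadjusted p under 0.05, and DESeq2 called 2 members, Sulf1 and Sulf2, and 5.63% of its genes). Since a member could be tested because it was high in a single group, the counts of tested members are not evidence about the set.

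The comparisons of Kit- K5+ and of Kit+ K5- cells with Kit- K5- cells share the Kit- K5- libraries, so their values are given side by side and no likeness between them is drawn. The members' median log2 difference was 0.07 for K5 in Kit- cells, beside 0.04 over all genes tested, and -0.31 for Kit in K5- cells, beside 0.05. It was 0.11 beside -0.04 for K5 in Kit+ cells and -0.17 beside -0.05 for Kit in K5+ cells. When libraries were scaled to the summed counts of the epithelium markers in place of TMM, the median gene moved to -1.69 and -2.01 in the 2 comparisons with Kit- K5- cells, and 0 members were then higher against 22 and 25 lower, beside 0.740% and 0.235% of all genes higher and 66.4% and 73.8% lower. That scaling changed the direction of 11 tested members in each of these comparisons. Directions below are therefore relative to the bulk of genes, and for members called that changed direction the value under that scaling is given. The count of 9 members for K5 in Kit- cells went to 4 without Kit- K5- replicate 1 and to 5 without Kit- K5+ replicate 2. The count of 11 for Kit in K5- cells went to 4 and 6 without Kit- K5- replicates 1 and 2, and to 7 without Kit+ K5- replicate 2 or replicate 3. Calls over all genes moved too. Over the 12 fits that each left out a library, 1362 to 3157 genes were called for K5 in Kit- cells, against 2806 with all. For Kit in K5- cells the range was 2123 to 3754 genes, against 3624.

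**Figure D2:**
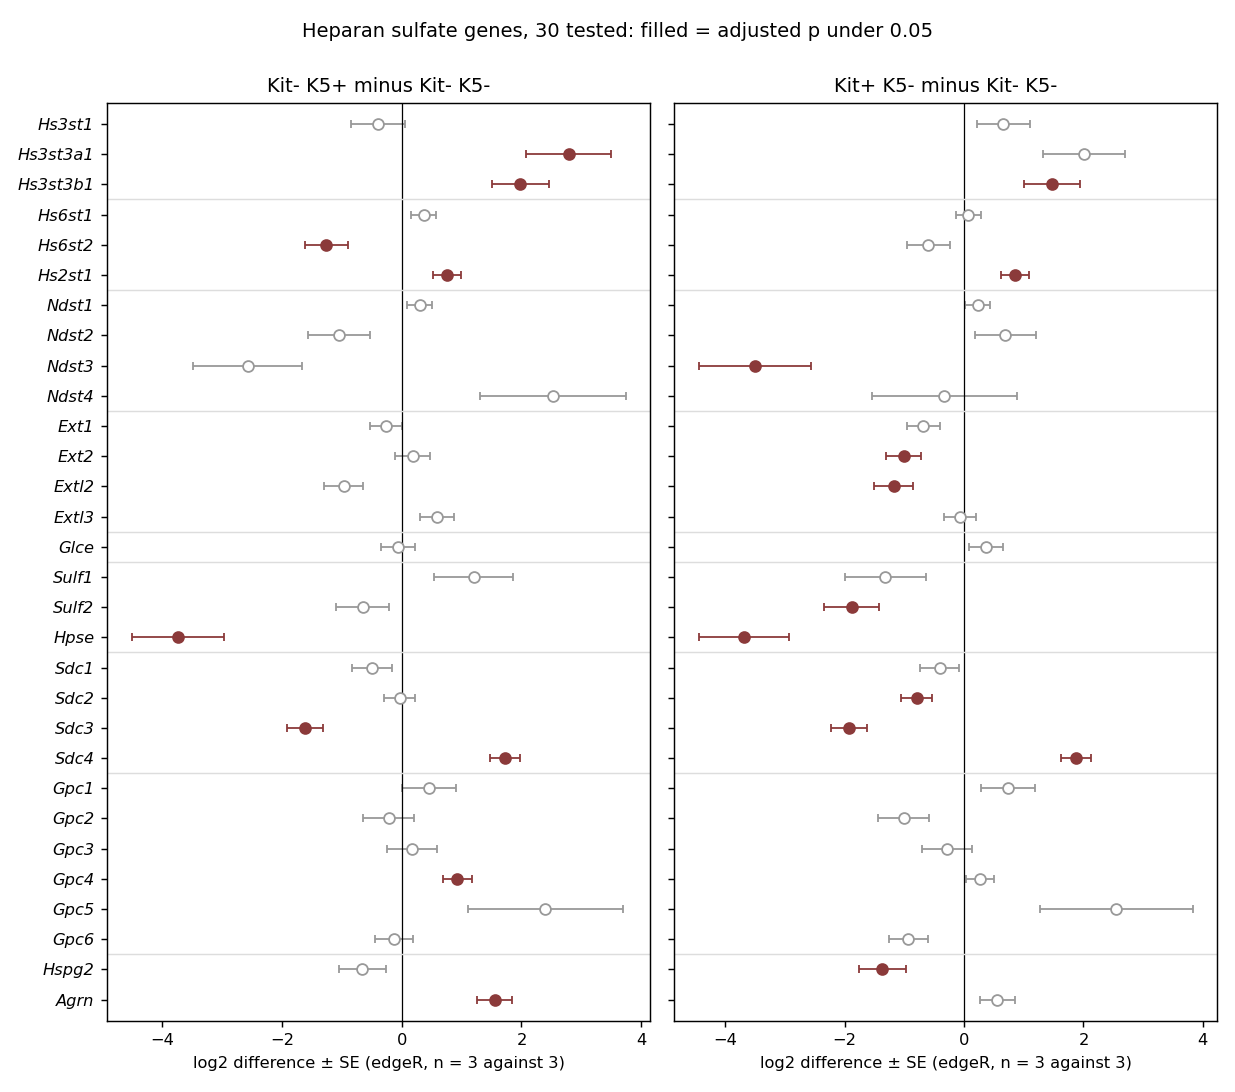
Log2 differences ± SE of the 30 tested members in the 2 comparisons against Kit- K5- cells (3 libraries against 3, edgeR), grouped by role, with filled points for an adjusted p under 0.05. The K5 panel has 9 filled points and the Kit panel 11. The panels share the Kit- K5- libraries.

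Among the 3-O-sulfotransferases, which add the rarest of the sulfate groups, Hs3st3b1 and Hs3st3a1 were lowest in Kit- K5- cells. Hs3st3b1 (chromosome 11, 63885792 to 63922290, minus strand) had 109, 214 and 169 CPM in Kit+ K5+, 71.9, 185 and 186 in Kit+ K5-, 361, 175 and 88.2 in Kit- K5+ and 34.9, 58.8 and 64.4 CPM in Kit- K5- libraries. Every library of the other groups lay above every Kit- K5- library. Hs3st3b1 was higher in Kit- K5+ than in the Kit- K5- cells by log2 1.98 ± 0.48 (SE throughout, adjusted p = 0.0128), and in Kit+ K5- than in the Kit- K5- cells by log2 1.48 ± 0.47 (adjusted p = 0.038), but scaled to the epithelium markers these were 0.25 and -0.47. The K5 difference did not pass without Kit- K5+ replicate 1 (adjusted p = 0.0667) or Kit- K5- replicate 1 (0.0671). The Kit difference did not pass without Kit+ K5- replicate 2 or 3 (0.132 and 0.105) or any of the Kit- K5- replicates (0.145, 0.0865 and 0.0648).

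Hs3st3a1 (chromosome 11, 64435332 to 64522841, plus strand) had 8.3, 27.5 and 34.4 CPM in Kit+ K5+, 7.19, 23.9 and 26.2 in Kit+ K5-, 49.3, 41.2 and 7.27 in Kit- K5+ and 2.69, 6.82 and 4.7 CPM in Kit- K5- libraries. The Kit- K5- libraries were again all below the others, although the lowest libraries of the other groups, 7.19 to 8.3 CPM, lay just above the highest of them. Hs3st3a1 was higher in Kit- K5+ than in the Kit- K5- cells by log2 2.79 ± 0.71 (adjusted p = 0.0168). That call was lost without Kit- K5+ replicate 1 or 2 (adjusted p = 0.06 and 0.0516) or Kit- K5- replicate 1 or 3 (0.0792 and 0.0509). Its difference between Kit+ K5- and Kit- K5- cells, log2 2.01 ± 0.69, did not pass without the run block (adjusted p = 0.0538) and passed with it (1.97 ± 0.65, adjusted p = 0.037), as it did without the block when Kit+ K5+ replicate 1, Kit+ K5- replicate 1 or Kit- K5+ replicate 3 was left out (0.0376, 0.021 and 0.0223). Scaled to the epithelium markers the differences were 1.01 and 0.05. The counts of Hs3st3a1 are uncertain: 42.8% of the 50-base stretches of its transcripts occur in another gene, 1247 in the antisense F930015N05Rik, whose own mean was 0.0899 to 0.417 CPM, and 416 in Hs3st3b1. For Hs3st3b1 the share was 8.56%. How strand was handled in counting is not known here, so reads of Hs3st3a1 and its antisense partner cannot be told apart.

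Hs3st1, the enzyme known for making the antithrombin-binding form of the chain, averaged 22, 40.8, 19.7 and 25.9 CPM over the 4 groups and passed in no comparison. The make-up of the 6 listed enzymes can be read within a library, free of scaling. It is given as the share of each gene's CPM per kilobase of exon in their sum, which leaves out Hs3st4. Hs3st3b1 held 61.8% to 80.2% of this sum in Kit+ K5+ libraries and 63.7% to 74.9% in Kit- K5+ libraries, against 40% to 49.6% in Kit- K5- libraries, while Hs3st1 held 12% to 22%, 12.1% to 19.3% and 44.6% to 50.6%. In Kit+ K5- libraries Hs3st3b1 held 36.7%, 64.7% and 60.3% and Hs3st1 58.3%, 24% and 28.2%. Replicate 1, the library with 4959 CPM of mast cell markers, thus had the lowest share of Hs3st3b1 and the highest of Hs3st1 among all 12. The part of mast cells in it was not tested. Hs3st2, Hs3st5 and Hs3st6 had too few counts for edgeR's filter, with 14, 191 and 29 counts over all 12 libraries. DESeq2 called Hs3st5 lower in Kit+ K5- than in the Kit- K5- cells (log2 -2.81 ± 0.97, adjusted p = 0.0192). By edgeR with no filter on low counts Hs3st5 did not pass there (adjusted p = 0.0901). Hs3st6 had 0 counts in Kit- K5- libraries, and of 191 counts of Hs3st5, 141 were in the Kit- K5- group and 102 in 1 library of it.

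**Figure D3:**
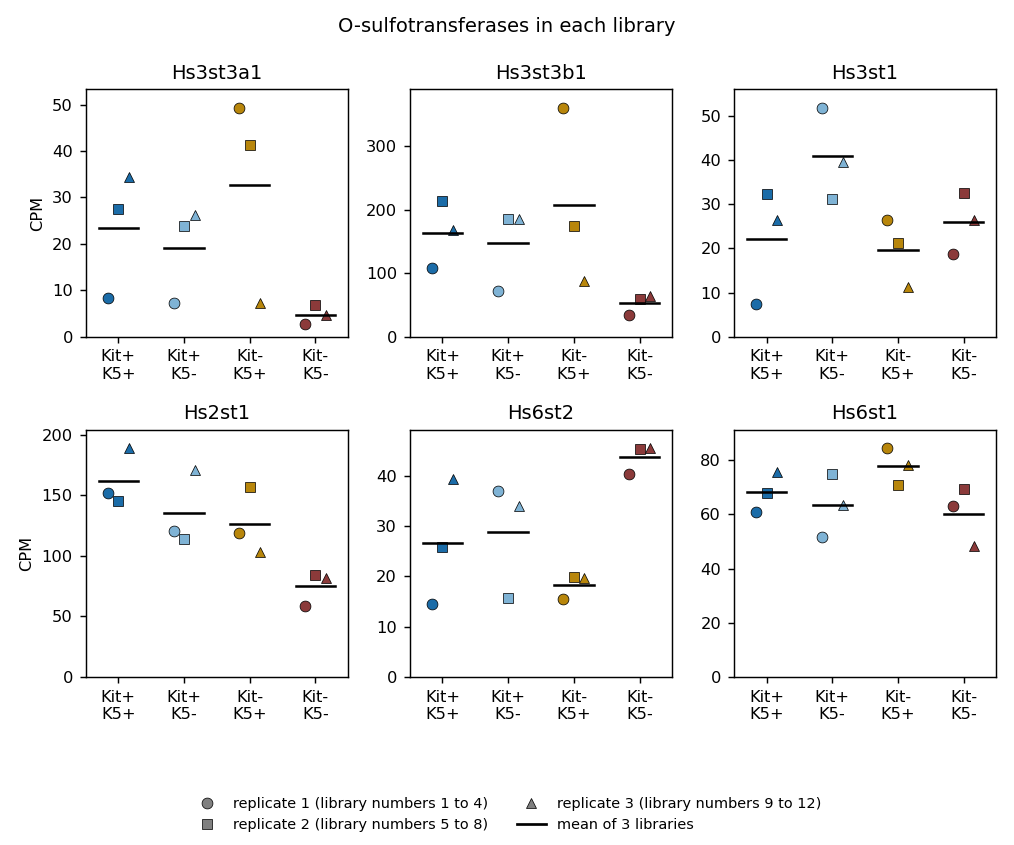
CPM of 6 O-sulfotransferase genes in each library, on linear axes from 0, with symbols for the replicates and a bar for the mean of 3 libraries. Hs3st3a1, Hs3st3b1 and Hs2st1 are lowest in the 3 Kit- K5- libraries, and Hs6st2 is highest there.

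Hs2st1, the only gene for 2-O-sulfation of the chain, was also lowest in Kit- K5- cells. It had 152, 145 and 189 CPM in Kit+ K5+, 120.3, 114 and 171 in Kit+ K5-, 119, 157 and 103 in Kit- K5+ and 58.8, 84.3 and 81.4 CPM in Kit- K5- libraries. The Kit- K5- libraries did not overlap any other group. It was higher by log2 0.76 ± 0.23 in Kit- K5+ (adjusted p = 0.0391) and by 0.85 ± 0.23 in Kit+ K5- than in the Kit- K5- cells (adjusted p = 0.0183), and was -0.98 and -1.15 scaled to the epithelium markers. The K5 call held without Kit+ K5- replicate 1 or 3 or Kit- K5+ replicate 3 and was lost without any of the other 9 libraries (adjusted p up to 0.192). The Kit call was lost without Kit- K5- replicate 1 (0.103) or Kit+ K5- replicate 3 (0.0814).

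Of the 6-O-sulfotransferases, whose product the sulfatases later remove, Hs6st2 went the other way. It had 14.6, 25.8 and 39.3 CPM in Kit+ K5+, 37, 15.8 and 33.9 in Kit+ K5-, 15.5, 19.8 and 19.7 in Kit- K5+ and 40.3, 45.4 and 45.5 CPM in Kit- K5- libraries. All Kit- K5+ libraries were below 20 CPM and all Kit- K5- libraries above 40, while the Kit+ libraries ran from 14.6 to 39.3 CPM. Hs6st2 was lower in Kit- K5+ than in the Kit- K5- cells by log2 -1.26 ± 0.36 (adjusted p = 0.0311), a call lost without any library of these groups (0.061 to 0.0924). Kit+ K5- and Kit- K5- cells differed by -0.60 ± 0.36 (adjusted p = 0.262). Hs6st1, the more abundant gene per kilobase in every group, averaged 68.2, 63.3, 77.9 and 60.2 CPM over the 4 groups and passed in no comparison. Hs6st2 thus held 30.3% to 38.8% of the 6-O-sulfotransferase CPM per kilobase in Kit- K5- libraries and 11.5% to 16.6% in Kit- K5+ libraries. Hs6st3 had too few counts for edgeR's filter, with 31 counts in all, 22 of them in Kit- K5- libraries.

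The N-deacetylase/N-sulfotransferases open the way for all later sulfation, and the 2 abundant genes passed in no comparison without or with the block. By edgeR with no filter on low counts, Ndst2 was lower for K5 in Kit+ cells (log2 -1.30, adjusted p = 0.00498). In that fit it was also lower for K5 in Kit- cells (-1.11, adjusted p = 0.00582). Ndst1 averaged 187, 152, 159.7 and 129.6 CPM over the 4 groups. Ndst2 averaged 25.1, 63, 18.8 and 39 CPM, and the Kit+ K5- mean was set by replicate 1, at 133 CPM against 28.6 and 27.2 CPM in replicates 2 and 3. Ndst2 is the enzyme of the family that makes heparin in mast cells. Replicate 1 also had 2114 CPM of the mast cell gene Cpa3, against 104 and 76.5 CPM. The part of mast cells in the Ndst2 level was not tested. Ndst3 had 0.461, 0.771 and 0.388 CPM in Kit+ K5+, 2.11, 0.105 and 0.291 in Kit+ K5-, 1.25, 0.687 and 3.06 in Kit- K5+ and 17.4, 7.97 and 3.78 CPM in Kit- K5- libraries. The Kit- K5- libraries were above all others, with 266, 104 and 37 counts. Ndst3 was lower in Kit+ K5- than in the Kit- K5- cells by log2 -3.50 ± 0.94 (adjusted p = 0.0177), a call lost without Kit- K5- replicate 1 (0.104) or Kit+ K5- replicate 2 or 3 (0.0621 and 0.0612), and its K5 difference in Kit- cells was -2.57 ± 0.91 (adjusted p = 0.0689). That K5 difference of Ndst3 passed by DESeq2 (adjusted p = 0.0229) and by edgeR with no filter (0.0097). Ndst4 stayed at a mean of 0.777 to 6.01 CPM and passed in no comparison.

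Among the genes of chain initiation and polymerisation, Ext2 and Extl2 were lower in Kit+ K5- than in the Kit- K5- cells. Ext2, a subunit of the polymerase, had 220.0, 271 and 217 CPM in Kit+ K5+, 109, 131 and 155 in Kit+ K5-, 223, 475 and 204 in Kit- K5+ and 282, 294 and 217 CPM in Kit- K5- libraries. The Kit+ K5- libraries were below every other library, and the difference from Kit- K5- cells was log2 -1.01 ± 0.29 (adjusted p = 0.0238), lost without Kit+ K5- replicate 1 or 2 (0.0709 and 0.0772) or Kit- K5- replicate 1 or 2 (0.0743 and 0.0844). Extl2, a transferase that acts on the linker, had 13.9, 16.6 and 16.9 CPM in Kit+ K5+, 13.4, 14 and 8.3 in Kit+ K5-, 17.8, 14.3 and 9.37 in Kit- K5+ and 32.9, 29.4 and 18.9 CPM in Kit- K5- libraries. No library of another group reached the lowest Kit- K5- library. Extl2 was lower in Kit+ K5- cells by -1.18 ± 0.33 (adjusted p = 0.0206), which did not pass without Kit- K5- replicate 1 or 2 (0.096 and 0.073) or Kit+ K5- replicate 3 (0.0868). Its K5 difference in Kit- cells, -0.97 ± 0.33 (adjusted p = 0.0596), passed with the run block (-0.97 ± 0.28, adjusted p = 0.022) and, without it, when Kit- K5- replicate 3 was left out (0.0446). Ext1, the other polymerase subunit, averaged 143, 139, 185 and 221 CPM over the 4 groups, and Extl3, which starts the chain, 109, 101, 159 and 105 CPM. The epimerase gene Glce, whose product flips the uronic acid before 2-O-sulfation, averaged 181, 188, 141 and 146 CPM. Ext1, Extl3 and Glce passed in no comparison. Extl1 had too few counts for edgeR's filter, with 76 counts in all. DESeq2 called Extl1 higher in Kit+ K5- than in the Kit- K5- cells (log2 2.91 ± 1.03, adjusted p = 0.0227). By edgeR with no filter on low counts Extl1 did not pass there (adjusted p = 0.2).

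Of the genes for enzymes that edit chains outside the cell, Sulf1 had its highest mean in Kit- K5+ cells and Sulf2 and Hpse in Kit- K5- cells. Sulf1 had 2.12, 5.69 and 5.17 CPM in Kit+ K5+, 3.7, 4.95 and 15 in Kit+ K5-, 22.6, 27.3 and 85.1 in Kit- K5+ and 10.2, 10.9 and 37.8 CPM in Kit- K5- libraries. Replicate 3 was the highest library in 3 of the groups, and within each run the order Kit- K5+ above Kit- K5- above Kit+ K5- held. Between Kit+ K5+ and Kit- K5+ cells, which did not overlap, the difference was log2 -3.38 ± 0.73 and missed the threshold (adjusted p = 0.0514). With the run as a block it was -3.15 ± 0.36 (adjusted p = 0.00116), the 1 member of 30 called there beside 4.63% of all genes, and it passed whichever library was left out (adjusted p up to 0.00983). Without the block it passed without Kit+ K5- replicate 1, Kit+ K5- replicate 3 or Kit- K5- replicate 3 (adjusted p = 0.0329, 0.0483 and 0.0479). With the block Sulf1 was also higher in Kit- K5+ than in the Kit- K5- cells (1.21 ± 0.33, adjusted p = 0.0169, against 1.20 ± 0.66 and 0.238 without it, and -0.39 without it scaled to the epithelium markers) and lower in Kit+ K5- than in the Kit- K5- cells (-1.31 ± 0.34, adjusted p = 0.0108, against -1.32 ± 0.68 and 0.189). The first of these blocked calls was lost without Kit- K5- replicate 1 or 2 or Kit- K5+ replicate 3 (0.0502, 0.101 and 0.074), and the second without Kit+ K5- replicate 2 (0.0561) or Kit- K5- replicate 3 (adjusted p = 0.0571).

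Sulf2 was the larger of the sulfatase genes per kilobase in every library. It had 41.3, 40.3 and 45.3 CPM in Kit+ K5+, 39.2, 42.1 and 58.5 in Kit+ K5-, 42, 86.8 and 201 in Kit- K5+ and 113, 136 and 266 CPM in Kit- K5- libraries. Both Kit+ groups were low and narrow, the Kit- K5- libraries were all above 100 CPM, and the Kit- K5+ libraries spread across the gap. Sulf2 was lower in Kit+ K5- than in the Kit- K5- cells by log2 -1.88 ± 0.46 (adjusted p = 0.00989), whichever library was left out. The Kit difference in K5+ cells was -1.37 ± 0.45 (adjusted p = 0.138, with the block 0.0503). It passed by DESeq2 (adjusted p = 0.0391) and by edgeR with no filter on low counts (2.83e-04). The share of Sulf1 in the sulfatases' CPM per kilobase was 14.1% to 21.9% in Kit- K5+ libraries and 2.6% to 11.8% in all others, so the Kit- K5+ group did not overlap the rest in this ratio, which does not depend on scaling.

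Hpse, the gene of heparanase, was near the limit of detection outside Kit- K5- cells. It had 0.646, 1.25 and 1.03 CPM in Kit+ K5+, 1.16, 0.316 and 0.291 in Kit+ K5-, 0.375, 0.275 and 1.15 in Kit- K5+ and 8.13, 10 and 5.31 CPM in Kit- K5- libraries, or 28, 16, 11 and 307 counts per group. Every Kit- K5- library was above 5 CPM and every other library at or below 1.25. Hpse was lower in Kit- K5+ than in the Kit- K5- cells by log2 -3.74 ± 0.77 (adjusted p = 0.00526) and in Kit+ K5- cells by -3.68 ± 0.75 (adjusted p = 0.00373), and both calls held whichever library was left out. Markers of leukocytes and macrophages summed to 970.5, 322 and 196 CPM in Kit- K5- libraries, to 520.1 CPM in Kit+ K5- replicate 1 and to 47.3 to 106 CPM in the rest. Of 11 tested, 8 were lower in Kit- K5+ and 2 in Kit+ K5- than in the Kit- K5- cells. Over all genes tested, 9.10% and 11.1% were lower. The part of these markers in the Hpse difference was not tested. Hpse2, a related gene without the cutting activity, was higher in Kit- K5+ cells, at 5.63, 1.1 and 5.55 CPM against 0.131, 0.46 and 0.408 CPM in Kit- K5- libraries (3.59 ± 0.84, adjusted p = 0.011).

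**Figure D4:**
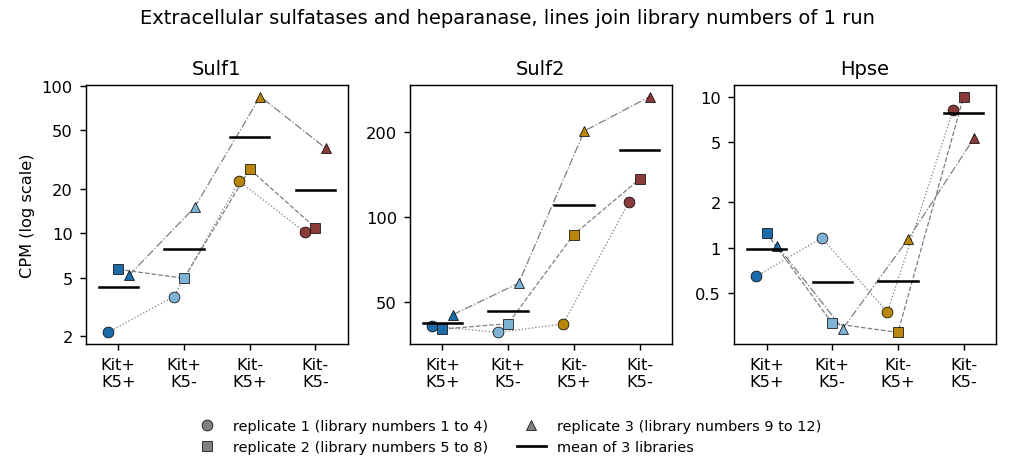
CPM of Sulf1, Sulf2 and Hpse in each library on log scales, with lines joining the libraries of a run. Sulf1 is highest in Kit- K5+ libraries within every run, and Hpse is above 5 CPM in Kit- K5- libraries alone.

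The syndecans are core proteins that span the membrane, and Sdc4 and Sdc3 differed in opposite directions. Sdc4 (chromosome 2, 164424247 to 164443887, minus strand) had 269, 363 and 278 CPM in Kit+ K5+, 235, 383 and 366 in Kit+ K5-, 347, 338 and 204 in Kit- K5+ and 91.2, 82.1 and 95.8 CPM in Kit- K5- libraries. The lowest library of the first 3 groups, 204 CPM, lay well above the highest Kit- K5- library, 95.8 CPM. Sdc4 was higher by log2 1.72 ± 0.25 in Kit- K5+ (adjusted p = 4.53e-04) and by 1.87 ± 0.25 in Kit+ K5- than in the Kit- K5- cells (adjusted p = 1.78e-04), whichever library was left out, but scaled to the epithelium markers the differences were -0.01 and -0.14. Within Kit+ cells the K5 difference was -0.11 ± 0.24 (adjusted p = 0.947) and within K5+ cells the Kit difference was 0.03 ± 0.24 (adjusted p = 0.96).

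Sdc3 (chromosome 4, 130792537 to 130826319, plus strand), known from the nervous system, had 30.9, 22.3 and 16 CPM in Kit+ K5+, 10.1, 19.7 and 18.5 in Kit+ K5-, 20.3, 17.6 and 22 in Kit- K5+ and 54.8, 69.5 and 58.2 CPM in Kit- K5- libraries. The Kit- K5- libraries were all above 50 CPM and the rest at or below 30.9. Sdc3 was lower by log2 -1.61 ± 0.30 in Kit- K5+ (adjusted p = 0.00288) and by -1.92 ± 0.30 in Kit+ K5- than in the Kit- K5- cells (adjusted p = 6.40e-04), whichever library was left out. Antisense genes overlap 7.73% of its exon length, and reads from that stretch cannot be assigned to a strand here. The 10 neuron and Schwann cell markers summed to 111 to 274 CPM in Kit- K5- and 180.0 to 390.4 CPM in the other libraries, while 4 of them were lower and 2 higher in Kit- K5+, and 3 lower and 1 higher in Kit+ K5-, than in the Kit- K5- cells. Over all genes tested, 9.10% were lower and 7.38% higher in the first of these comparisons, and 11.1% lower and 10.2% higher in the second. The part of these markers in the Sdc3 difference was not tested. Within a library, Sdc4 made up 76.3% to 85.6% of the syndecans' CPM per kilobase outside Kit- K5- cells and 38.8% to 49.9% in them, and Sdc3 1.5% to 3.79% and 10.8% to 14%.

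Sdc2 had 43, 51.3 and 69.5 CPM in Kit+ K5+, 23.9, 36.1 and 37.3 in Kit+ K5-, 61.1, 62.5 and 40.4 in Kit- K5+ and 64, 58.2 and 45.4 CPM in Kit- K5- libraries. It was lowest in Kit+ K5- libraries, all of which lay below the others. The difference from Kit- K5- cells, log2 -0.79 ± 0.26, passed narrowly (adjusted p = 0.0479) and did so in only 1 of 12 fits that left out a library, that without Kit- K5+ replicate 3 (highest adjusted p = 0.168, without Kit- K5- replicate 1). Sdc1, the syndecan typical of epithelia, averaged 50.9, 56.4, 53.1 and 75.2 CPM over the 4 groups and passed in no comparison.

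Glypicans are core proteins anchored to the membrane by a lipid, and 1 of the 6 passed without the block. Gpc4 had 45.5, 60.5 and 69.4 CPM in Kit+ K5+, 39.9, 69.8 and 60.3 in Kit+ K5-, 92.5, 96.6 and 77.9 in Kit- K5+ and 46.8, 52.6 and 41.1 CPM in Kit- K5- libraries. The Kit- K5+ libraries were above every other library. Gpc4 was higher in Kit- K5+ than in the Kit- K5- cells by log2 0.93 ± 0.24 (adjusted p = 0.0176), a value of -0.82 scaled to the epithelium markers, and the call was lost without Kit- K5- replicate 1 or 3 (0.0776 and 0.0801) or Kit- K5+ replicate 2 (0.0673). Gpc6 had 416, 400.5 and 632 CPM in Kit+ K5+, 185, 310.3 and 425 in Kit+ K5-, 728, 513 and 360.2 in Kit- K5+ and 458, 663 and 628 CPM in Kit- K5- libraries. Its Kit+ K5- libraries lay below its Kit- K5- libraries, by log2 -0.93 ± 0.32 (adjusted p = 0.053), which passed with the block (-0.95 ± 0.31, adjusted p = 0.0325) and, without it, when Kit- K5+ replicate 1 or Kit+ K5- replicate 3 was left out (0.0429 and 0.0275).

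Gpc3, a glypican of embryonic tissues, was the most abundant member per kilobase in every group but Kit+ K5-, where Sdc4 was. It averaged 417, 328, 452 and 401 CPM, or 155, 122, 168 and 149 CPM per kilobase, over the 4 groups and passed in no comparison. Gpc3 held 45.1% to 64.1% of the glypicans' CPM per kilobase over the 12 libraries. Gpc1 averaged 49.9, 44.8, 36.4 and 26.8 CPM and Gpc2 13.2, 13.7, 23.6 and 27.5 CPM in the same order, and neither passed. Counts of both are uncertain, as 18.9% of the exon length of Gpc1 overlaps the opposite-strand gene Ankmy1 and 55.6% of that of Gpc2 a gene on its own strand. Gpc5 averaged 0.305 to 1.81 CPM and passed in no comparison.

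Agrn and Hspg2 encode large proteoglycans of the basement membrane, the sheet on which the epithelium rests, and the balance between them differed. Agrn had 368, 453 and 369 CPM in Kit+ K5+, 196, 405 and 352 in Kit+ K5-, 887, 554 and 460.1 in Kit- K5+ and 159.7, 253 and 234 CPM in Kit- K5- libraries. The Kit- K5+ libraries were above every other library. Agrn was higher in Kit- K5+ than in the Kit- K5- cells by log2 1.55 ± 0.30 (adjusted p = 0.0036), whichever library was left out, though the value was -0.18 scaled to the epithelium markers. The Kit difference was 0.56 ± 0.30 in K5- cells (adjusted p = 0.205, and -1.44 with 0.00518 scaled to the epithelium markers) and -0.68 ± 0.30 in K5+ cells (adjusted p = 0.243). The 12 basal duct markers summed to 1457 to 3148 CPM in Kit- K5+ libraries and 184 to 417 CPM in Kit- K5- libraries. They summed to 888 to 1249 CPM in Kit+ K5+ and 448 to 1119 CPM in Kit+ K5- libraries. Epithelium markers were also higher in Kit- K5+ than in Kit- K5- libraries (1727 to 1927 against 515 to 647 CPM). Mesenchyme markers were lower there (851 to 1186 against 12863 to 21288 CPM). The part of these lists in the Agrn difference was not tested.

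Hspg2 had 185, 383 and 292 CPM in Kit+ K5+, 96.1, 284 and 269 in Kit+ K5-, 481, 339.9 and 242 in Kit- K5+ and 639, 647 and 394 CPM in Kit- K5- libraries. The Kit+ K5- and Kit- K5- libraries did not overlap. Hspg2 was lower in Kit+ K5- than in the Kit- K5- cells by log2 -1.37 ± 0.39 (adjusted p = 0.0239), a call lost without Kit- K5- replicate 1 or 2 (0.0749 and 0.0787) or Kit+ K5- replicate 1 (0.0507). Its K5 difference in Kit- cells was -0.66 ± 0.39 (adjusted p = 0.27). Agrn took 64.6% to 75.8% of the summed CPM per kilobase of the 2 genes outside Kit- K5- cells and 27.8% to 47.9% in them, with no overlap.

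**Figure D5:**
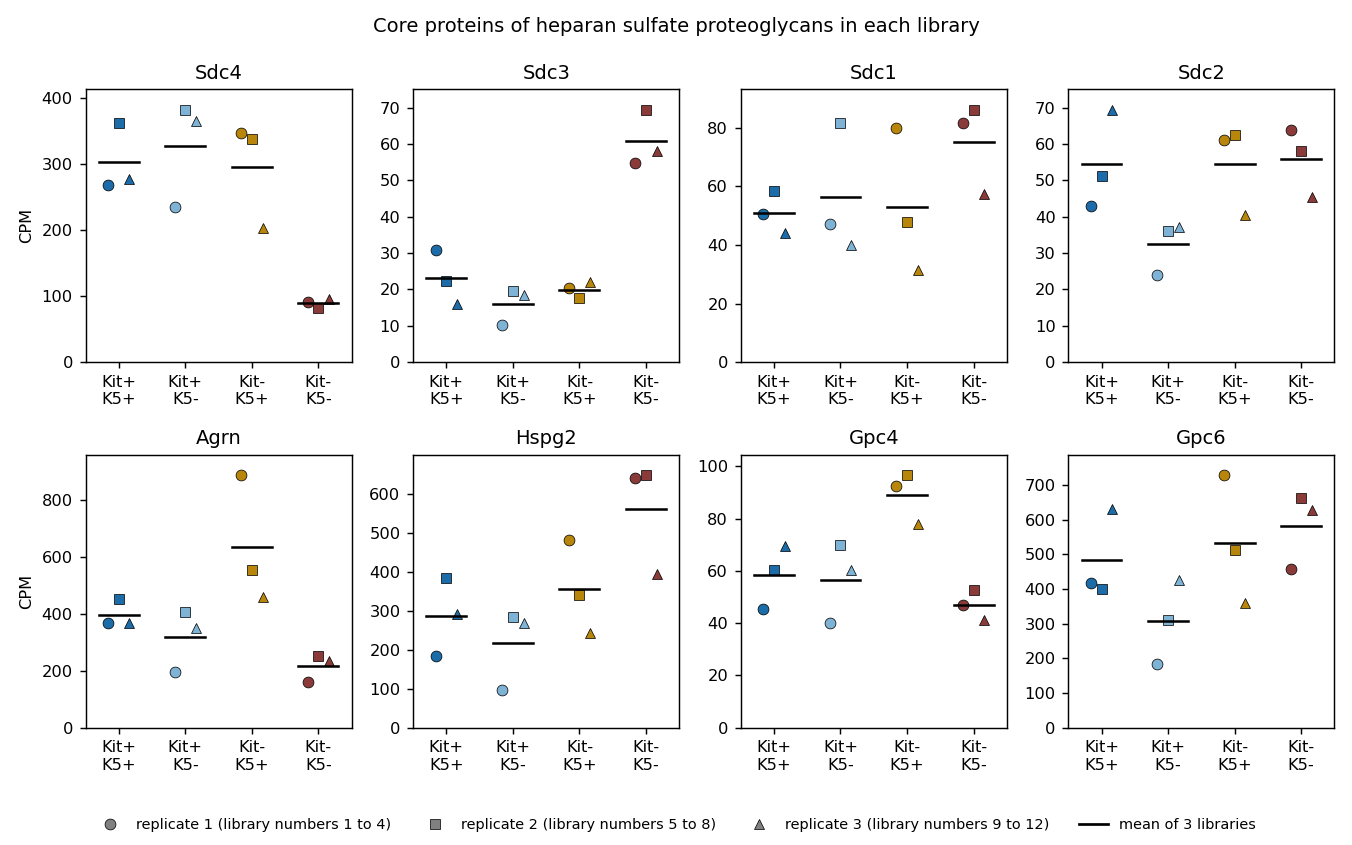
CPM of 8 core protein genes in each library, on linear axes from 0, with symbols for the replicates and a bar for the mean of 3 libraries. Sdc4 is at 82.1 to 95.8 CPM in Kit- K5- libraries and at 204 CPM or more elsewhere. Sdc3 is at 54.8 to 69.5 CPM in Kit- K5- libraries and at 30.9 CPM or less elsewhere. Agrn and Gpc4 are highest in Kit- K5+ libraries.

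Whether K5 goes with another difference in Kit+ than in Kit- cells was asked with an interaction term, in which 3 of 30 members passed beside 4.02% of all genes. The K5 difference in Kit+ minus that in Kit- cells was log2 -1.84 ± 0.35 for Sdc4 (adjusted p = 0.0087), 2.13 ± 0.42 for Sdc3 (adjusted p = 0.0115) and 4.43 ± 1.06 for Hpse (adjusted p = 0.0316). In each, the Kit- K5- libraries stood apart and the other 3 groups overlapped. Scaled to the epithelium markers the Sdc4 value was -0.17 (adjusted p = 0.807), and the Hpse call was lost without any of 8 of the 12 libraries (adjusted p up to 0.105). In the same term the epithelium markers had 7 of 21 genes lower and 0 higher, with a median of -1.58. The mesenchyme markers had 12 of 16 higher and 0 lower. The part of either list was not tested.

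A list of 18 genes held those of the linkage region and precursors, and also Hpse2 and Hs3st4, relatives of members. Of these, 2 were higher, Hpse2 and Papss1, and 2 lower in Kit- K5+ than in the Kit- K5- cells, beside 16.5% of all genes called. They include Papss1 and Papss2, which make the sulfate donor. Papss2 had 2.38, 7.01 and 4.21 CPM in Kit- K5+ and 41.2, 58.1 and 34.2 CPM in Kit- K5- libraries (log2 -3.29 ± 0.81, adjusted p = 0.0137). Papss1 went the other way, at 125, 113 and 69.3 CPM against 52.9, 62 and 63.3 CPM (0.79 ± 0.23, adjusted p = 0.0333, and -0.95 scaled to the epithelium markers). In Kit+ K5- cells, where 21.3% of all genes were called, 1 gene was higher, Papss1 (0.84 ± 0.23, adjusted p = 0.02, and -1.23 scaled to the epithelium markers), and 1 lower, Ugdh, which makes the uronic acid precursor (-1.10 ± 0.27, adjusted p = 0.0117). Papss2 was at 101, 7.16 and 10.9 CPM, high in the library with the most mast cell markers. Among lysosomal genes of heparan sulfate breakdown, Hgsnat, an acetyltransferase, was lower in both comparisons (-1.31 ± 0.28 and -1.38 ± 0.28, adjusted p = 0.00644 and 0.00343), and Idua was lower in Kit+ K5- cells.

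Chondroitin sulfate uses the same linker, and of its 13 tested genes 1 was higher and 3 lower in Kit- K5+ cells and 6 were lower in Kit+ K5- cells than in the Kit- K5- cells, beside 9.10% and 11.1% of all genes lower. Chpf, of the chain polymerase, had 10.5, 13.5 and 12.1 CPM in Kit- K5+, 8.35, 15 and 10.6 in Kit+ K5- and 41.7, 43.3 and 33.5 CPM in Kit- K5- libraries (log2 -1.72 ± 0.33 and -1.80 ± 0.33, adjusted p = 0.00316 and 0.00162). Csgalnact1, which starts the chain, was lower as well (-1.51 ± 0.28 and -1.12 ± 0.28, adjusted p = 0.00305 and 0.0114). With the run block the counts were 1 higher and 5 lower in Kit- K5+ cells, and 1 higher and 8 lower in Kit+ K5- cells, beside 23.8% and 29.2% of all genes called in either direction. Of 8 other proteins that can carry heparan sulfate, 4 were lower in Kit- K5+ cells and 3 in Kit+ K5- cells, beside the same 9.10% and 11.1%, led by the receptor Nrp1 (-4.90 ± 0.44 and -5.00 ± 0.44, adjusted p = 1.12e-05 and 5.20e-06). Cd44, a hyaluronan receptor, was the 1 gene of these 5 lists that passed for Kit in K5+ cells, at 162, 103 and 106 CPM in Kit+ K5+ against 29.9, 16.2 and 20.7 CPM in Kit- K5+ libraries (2.47 ± 0.47, adjusted p = 0.0407).

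The FGF list, the signalling that heparan sulfate is known to shape, held calls in both directions. Of 12 genes, 5 were higher and 3 lower in Kit- K5+ than in the Kit- K5- cells, and 4 higher and 3 lower in Kit+ K5- cells, beside 16.5% and 21.3% of all genes called. The ligand genes Fgf10 and Fgf7 were lower, Fgf10 at 2.13, 6.73 and 10.9 CPM in Kit- K5+, 3.91, 1.26 and 3.93 in Kit+ K5- and 154, 180.4 and 119.9 CPM in Kit- K5- libraries (log2 -4.55 ± 0.51 and -5.65 ± 0.54, adjusted p = 6.51e-05 and 1.12e-05). Both encode factors made by the mesenchyme. The 16 mesenchyme markers were lower in the same libraries, 15 and 16 of them past the threshold. Their part in the Fgf10 and Fgf7 differences was not tested. Fgf1, a ligand gene too, was higher (2.23 ± 0.33 and 1.06 ± 0.32, adjusted p = 5.65e-04 and 0.0313, but 0.48 and -0.97 scaled to the epithelium markers). The feedback gene Spry4 was lower (-2.72 ± 0.30 and -2.11 ± 0.29, adjusted p = 5.27e-05 and 2.15e-04), and Dusp6, another feedback gene, was higher (1.09 ± 0.21 and 1.34 ± 0.21, adjusted p = 0.00336 and 6.11e-04, but -0.63 and -0.66 scaled to the epithelium markers). Within Kit+ cells and for Kit within K5+ cells, 0 of 12 passed without the block, beside 0% and 0.658% of all genes. With the block 2 were lower in Kit+ K5+ than in the Kit- K5+ cells, Fgf7 and Fgfr2, beside 4.63% of all genes called.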

How the data were processed

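RNA from 12 libraries, 3 of each sorted group, was sequenced as single 50-base reads. Per the labels' protocols the authors mapped reads to GRCm38 with STAR 2.4.2a and deposited whole-number counts per gene from featureCounts. The build GRCm38.p3 and the tools FastQC, Picard 1.129 and featureCounts 1.4.6-p3 are listed in the submitters' processing notes. Not given in the sources used here are the annotation release, the strand setting and the handling of reads that map to several places. Without strand, overlapping and near-identical genes can share reads.

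Counts were tested with edgeR 4.0.16 (limma 3.58.1, R 4.3.3). The filter filterByExpr (minimum count 10) left 17030 genes, TMM set the library sizes, and a single quasi-likelihood fit over all 12 libraries had a coefficient per group (8 residual degrees of freedom, common biological coefficient of variation 0.437). Adjusted p-values are from edgeR's quasi-likelihood test with Benjamini-Hochberg adjustment over all genes tested, at 0.05, and standard errors are those implied by its F statistic. The depth of 5589037 to 13724364 counts puts the limit that a count of 0 allows (3 counts) at 0.197 to 0.574 CPM, for counting error only. Levels between genes are compared as CPM per kilobase of exon. Exon lengths and positions are from GENCODE M21. The fit was tested on simulated data.

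Each run of library numbers (1 to 4, 5 to 8, 9 to 12) holds every group. Whether a run came from a shared sort is not in the labels, and the pairing was taken from the data. Deviations from the group means correlated at 0.108 to 0.408 between same-run libraries of groups compared, above 0.1 in each pair. Libraries of different runs were not compared in this way. Runs were taken to pair the libraries in the pairwise comparisons, which were also fitted with the run as a block. The fit behind the main counts has no run term and does not use this pairing. The lowest value between groups that the interaction alone joins was 0.0928, and its blocked values serve for comparison only.

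Alternatives were the run block, DESeq2 1.42.0, RLE, upper-quartile and epithelium-marker scaling, other filters, a fit of just the groups compared, and fits without each library or run. The fit of Sulf1 with the block and without each library was added after seeing the data. Members, lists and rules were chosen with earlier results of these data known. Named with values in every library were members past 0.05 in any comparison, without or with the block, and others above 10 CPM in a group by their means. From each pathway list came up to 3 genes with the smallest adjusted p in a comparison, of which some are written out. Fgf1, Fgfr2, Cpa3, Ankmy1 and F930015N05Rik were named after their values were seen. Results for 1 gene of the pathway lists, and counts that need it, are not reported here.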

Additional observations from a re-analysis of the deposited data

Results flagged for a closer look

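For 3 members the K5 difference in Kit+ cells differed from that in Kit- cells by edgeR's interaction test. The term was -1.84 ± 0.35 for Sdc4 (log2, adjusted p = 0.0087), where the K5 difference was -0.11 in Kit+ and 1.72 in Kit- cells. It was 2.13 ± 0.42 for Sdc3 (adjusted p = 0.0115), with 0.52 in Kit+ and -1.61 in Kit- cells. It was 4.43 ± 1.06 for Hpse (adjusted p = 0.0316), with 0.69 in Kit+ and -3.74 in Kit- cells. Scaled to the epithelium markers the Sdc4 term was -0.17 (adjusted p = 0.807). The Hpse call was lost without any of 8 of the 12 libraries. Of the 3 fits that left out a run, 1 ended the call of Sdc4, 2 that of Sdc3 and 3 that of Hpse.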

How the results depend on the processing

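Of 23 calls of single members, 10 held whichever library was left out (Agrn, Hpse, Sdc3 and Sdc4 for K5 in Kit- cells, Hpse, Sdc3, Sdc4 and Sulf2 for Kit in K5- cells, Sdc3 and Sdc4 in the interaction) and 0 changed direction. Without libraries 5 to 8 all but 3 of these 10 ended, namely Sdc4 for K5 in Kit- cells and Sdc3 and Sdc4 for Kit in K5- cells, which held without any run. The comparisons are taken below in the order K5 in Kit+, K5 in Kit-, Kit in K5+, Kit in K5- and interaction. Leaving out a library gave 0, 4 to 11, 0 to 1, 4 to 12 and 2 to 4 members and 0 to 4, 1362 to 3157, 4 to 240, 2123 to 3754 and 370 to 729 genes, and leaving out a run 0, 1 to 6, 0, 2 to 9 and 0 to 2 members and 0 to 3, 548 to 1710, 1 to 9, 851 to 2785 and 87 to 452 genes.

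Scaling to the epithelium markers called 37, 11440, 189, 12605 and 7775 genes and 22, 1, 25 and 16 members after 0 for K5 in Kit+ cells. It turned Agrn to -0.18, Gpc4 to -0.82, Hs2st1 to -0.98, Sdc4 to -0.01 and Sulf1 to -0.39 for K5 in Kit- cells, and Hs2st1 to -1.15, Hs3st3b1 to -0.47 and Sdc4 to -0.14 for Kit in K5- cells, as it sets the epithelium list near 0 by construction. The run block gave 54 genes for K5 in Kit+ cells, 788 genes and 1 member for Kit in K5+ cells, and 1418 genes (8.33%) and 5 members in the interaction, with Extl2 (adjusted p = 0.0404) and Sulf1 (0.0347) added. DESeq2 called 123 genes for K5 in Kit+ cells, 1092 genes and 2 members for Kit in K5+ cells and 1434 genes in the interaction. With no filter 35 members and 36398 genes were tested. Of these, 318 genes and 1 member, Ndst2, were called for K5 in Kit+ cells. In the same fit there were 1212 genes and 2 members (5.71% of members) for Kit in K5+ cells. The interaction had 1960 of the 36398 genes and 8 of the 35 members (22.9%). With the compared groups alone, Kit in K5+ cells had 72 genes and 1 member. The cause of these changes was not tested.

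Among single values under the other settings, upper-quartile scaling ended the calls of Hs6st2 for K5 in Kit- cells (adjusted p = 0.0521) and of Sdc2 for Kit in K5- cells (0.0513). The Sdc2 call also ended with no filter (0.0612) and with the compared groups alone (0.0507), and that of Hs2st1 for K5 in Kit- cells with no filter (0.0606). Besides the changes given with the results, the block changed no other call of a member in the pairwise comparisons. Depth left Hs3st2, Hs3st5, Hs3st6, Hs6st3 and Extl1 with too few counts for edgeR's filter. Of these, DESeq2 called Hs3st5 lower and Extl1 higher for Kit in K5- cells.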
